A study of Mus musculus with 24 samples.

Results

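The genes described here are 47 mouse cell cycle genes, chosen as the rows of the expression table whose Ensembl identifiers map to a list of symbols. All 47 were found among the 17149 genes of the table, and all 47 passed the filter on low values. They fall into 4 roles: 17 S phase genes (DNA replication and its entry), 23 mitosis genes, 4 genes of the G1 kinase (the 3 D cyclins and Cdk6) and 3 CDK inhibitors. The rule reads symbols and no measured value, but the list was drawn up with earlier results of these data known. RNA was sequenced in bulk from mouse bone marrow LSK cells, the lineage-negative Sca-1+ Kit+ fraction that holds the stem and multipotent progenitors, and was sorted by the surface receptor CD135 (Flt3) and by GFP. CD135- cells are called HSC in the titles and CD135+ cells LMPP (lymphoid-primed multipotent progenitors). Control animals (Ctrl) are given as wild type (Tal1 F/F) Rag2GFP, and the deleted animals (KO) as VaviCre Tal1F/F Rag2GFP. Both genotypes therefore carry the floxed Tal1 allele and the Rag2-GFP reporter, and differ in the Vav-iCre transgene, which is active across blood cells. Each sort was split into Rag2-GFP negative and Rag2-GFP positive cells, giving 8 groups of 3 libraries, 24 in all. The labels give no age or sex and do not say that the replicates came from separate animals, so the p-values here reflect only how far these samples spread, and that spread could be technical. The sample descriptions carry 6 numbers, each shared by the 4 sorted populations of 1 replicate of a genotype. What such a number marks is not stated, and the libraries were not treated as paired by it.

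In a dividing cell, D cyclins with CDK4 or CDK6 phosphorylate the retinoblastoma protein and release E2F factors, which switch on the genes for replication. The MCM helicase, CDC45 and the GINS complex open the DNA, while ribonucleotide reductase and thymidylate synthase supply nucleotides. Later a second wave of genes, controlled through the DREAM and MuvB complexes, B-MYB and FOXM1, builds the spindle, condenses the chromosomes and drives mitosis and its exit. The inhibitors p21 (Cdkn1a), p27 (Cdkn1b) and p57 (Cdkn1c) restrain the kinases. Long-term stem cells are known for slow division, and multipotent progenitors for faster division. The HSC groups here are CD135- LSK cells and were not sorted for long-term stem cells. In bulk RNA, fewer cells in cycle and less RNA of a gene per cell cannot be told apart.

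Totals of normalised counts lay between 6906083 and 11969093 per library. In 22 libraries 13583 to 15957 genes exceeded a value of 1, against 11982 in replicate 2 of Ctrl HSC GFP-positive cells and 11684 in replicate 3 of KO LMPP GFP-positive cells. Members that no longer passed when these 2 libraries of low detection were left out are named beside the counts. Flt3, Rag2 and Tal1 followed the gates and genotypes by group: Flt3 ranged from 177 to 3256 in the HSC groups and from 3623 to 8621 in the LMPP groups, Rag2 from 4.99 to 167 in the GFP-negative groups and from 316 to 2593 in the GFP-positive groups, and Tal1 was lower in every KO library than in any Ctrl library of the same gate. Tal1 was closest in HSC GFP-positive cells, at 140 to 308 in KO and 326 to 815 in Ctrl libraries. Kit and Ly6a (Sca-1) of the LSK gate, summed, were 5086 to 5695 without GFP and 2671 to 3444 with GFP in Ctrl LMPP. In KO LMPP they were 6362 to 8159 and 2691 to 4590, and in KO HSC 5765 to 8361 and 3928 to 4718. Ctrl HSC overlapped, and the part of this difference in the changes below was not tested. Across 18 comparisons, limma tested 16215 genes on log2(value + 4.1), and a gene passed at a Benjamini-Hochberg adjusted p under 0.05 over all genes of the comparison. All changes below are log2 differences on that scale, on which a difference of 1 is a doubling, with the standard error (SE) of the fit.

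Promoter sequence is shown for 6 of the members that rose with GFP, since genes of the replication wave and of the mitotic wave are known to be controlled through different short motifs. The 6 were chosen after their values and matches were seen, from members with a single RefSeq promoter window lying outside the annotated gene. Each sequence is the 150 bases before the transcription start (RefSeq, GRCm38.p6), 5′ to 3′ on the gene's strand. Capitals mark matches on either strand to the CHR motif (TTTGAA or TTCGAA), to CCAAT, or to an E2F motif (TTTGGCGC or TTTCGCGC or TTTGCCGC or TTTCCCGC), and adjoining matches share their capitals. Mcm5 and Mcm6 encode subunits of the replicative helicase.
Mcm5: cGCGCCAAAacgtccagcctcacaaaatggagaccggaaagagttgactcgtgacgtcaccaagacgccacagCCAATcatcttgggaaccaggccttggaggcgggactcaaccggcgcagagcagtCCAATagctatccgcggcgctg
Mcm6: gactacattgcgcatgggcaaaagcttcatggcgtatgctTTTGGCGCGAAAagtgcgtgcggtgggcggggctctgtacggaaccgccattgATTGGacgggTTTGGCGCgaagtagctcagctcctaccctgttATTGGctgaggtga
Mki67 (the proliferation antigen Ki-67), Top2a (topoisomerase II alpha), Kif11 (a spindle motor) and Nusap1 (a spindle-associated protein) act in mitosis.
Mki67: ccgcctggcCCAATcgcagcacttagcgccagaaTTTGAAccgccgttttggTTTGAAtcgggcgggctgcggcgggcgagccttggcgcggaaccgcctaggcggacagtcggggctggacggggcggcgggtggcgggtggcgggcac
Top2a: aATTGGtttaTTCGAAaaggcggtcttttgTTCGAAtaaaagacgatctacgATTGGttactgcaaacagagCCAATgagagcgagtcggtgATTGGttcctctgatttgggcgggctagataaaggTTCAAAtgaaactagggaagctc
Kif11: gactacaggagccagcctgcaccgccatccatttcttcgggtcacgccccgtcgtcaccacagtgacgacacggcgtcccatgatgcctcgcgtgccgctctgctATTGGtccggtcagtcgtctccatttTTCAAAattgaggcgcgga
Nusap1: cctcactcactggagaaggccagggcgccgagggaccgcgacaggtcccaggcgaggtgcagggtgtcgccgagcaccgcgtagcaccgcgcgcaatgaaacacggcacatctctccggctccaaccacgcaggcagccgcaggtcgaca
The windows lie at chr8:75109359-75109508 (plus strand) for Mcm5, chr1:128359706-128359855 (minus) for Mcm6, chr7:135716380-135716529 (minus) for Mki67, chr11:99024190-99024339 (minus) for Top2a, chr19:37376232-37376381 (plus) for Kif11 and chr2:119618148-119618297 (plus) for Nusap1. Mcm6 held 3 E2F matches and Mcm5 held 1 in these 150 bases, and neither held a CHR match. Top2a held 3 CHR and 4 CCAAT matches, Mki67 held 2 CHR matches and 1 CCAAT match, and Kif11 held 1 of each. Nusap1, the mitosis gene with the largest rise, held no match.

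Over the 250 bases before the start, 37 of the 47 genes matched the RefSeq table. An E2F match was held by 5 of 14 S phase genes (35.7%), by 1 of 19 mitosis genes (5.3%) and by 2.2% of the 27025 genes of the RefSeq table. These 27025 are called all genes in this paragraph, and were not limited to genes measured here. A CHR match was held by 21.4% of the S phase genes, 47.4% of the mitosis genes and 19.6% of all genes. CCAAT stood in 71.4% of the S phase genes, in 89.5% of the mitosis genes and in 37.5% of all genes. Among mitosis genes the CHR share was 41.7% of the 12 that rose with GFP and 57.1% of the 7 that did not pass. Of the 6 S phase genes that rose, 3 held an E2F match, while Cdc45, Mcm3 and Rrm1 held none. Cdc45 held a CHR match. A match is a description of letters in a window, and no test was made of it.

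Mitosis and S phase genes had their lowest group means in GFP-negative LMPP cells. Averaged over the 23 mitosis genes, the mean log2 level was 9.10 ± 0.29 (SD, n = 3) in Ctrl HSC GFP-negative libraries and 9.52 ± 0.22 in Ctrl HSC GFP-positive libraries. In Ctrl LMPP it was 8.69 ± 0.14 without GFP and 9.68 ± 0.06 with GFP. KO HSC stood at 9.27 ± 0.10 without GFP and 9.48 ± 0.10 with GFP, and KO LMPP at 8.22 ± 0.75 and 9.66 ± 0.18. Both GFP-negative LMPP groups were the lowest, and the KO LMPP GFP-negative libraries were the most spread, from 7.45 in replicate 2 to 8.95 in replicate 3. The 17 S phase genes had the same 2 lowest groups, at 8.88 ± 0.20 in Ctrl and 8.69 ± 0.49 in KO LMPP GFP-negative libraries, and their other 6 group means lay from 9.32 to 9.62. The D cyclins and Cdk6 together ranged from 10.12 to 10.70 over the group means, and the inhibitors, with wide replicate spread, from 5.92 to 6.81.

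**Figure D1:**
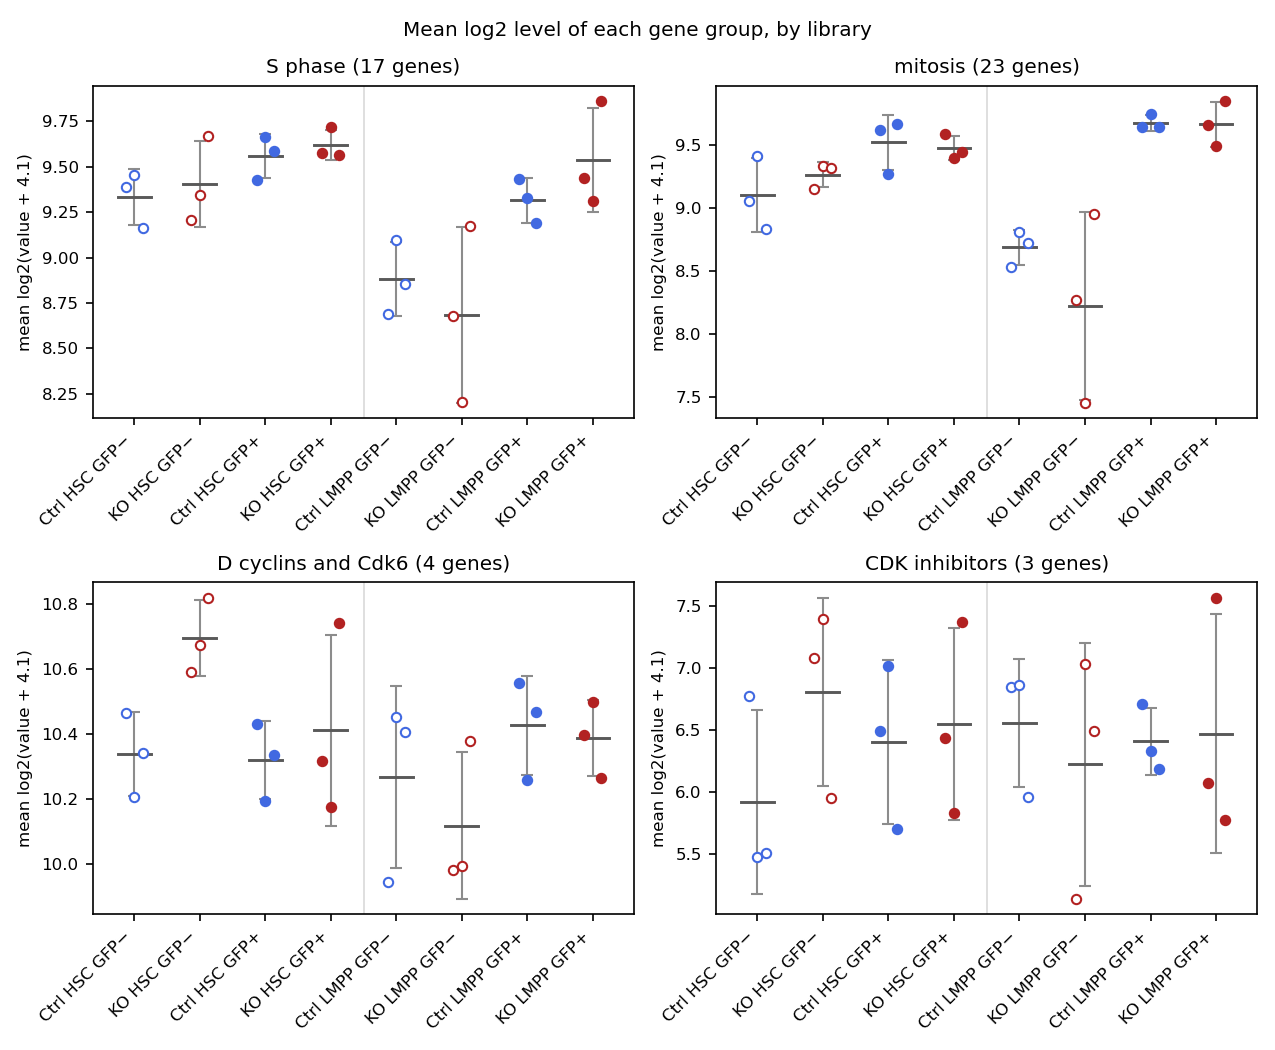
Mean over the genes of each role of log2(value + 4.1), on the y axis, in each of the 8 groups on the x axis. Each point is a library (open circles GFP-negative, filled circles GFP-positive, blue Ctrl, red KO), bars are means and whiskers SDs of 3 libraries, and the y axes do not start at 0 and differ between panels. For mitosis genes the GFP-negative LMPP groups, at 8.69 and 8.22, lie under the other 6 groups, at 9.10 to 9.68.

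Per kilobase of annotated exon, Mki67 had the highest level of the members in 7 of the 8 groups, with 395 to 1117 normalised counts per kilobase by group. In KO LMPP GFP-negative libraries Ccnb2, at 532 per kilobase, and Pcna, at 421, were higher than Mki67, at 395. The Ccnb2 libraries there were uneven, and held 1697, 99.0 and 647 normalised counts. Cdk6 ranged from 166 to 706 per kilobase, Top2a from 271 to 677 and Mcm6 from 352 to 655. At the low end, Cdkn1c had 1.0 to 13.7 and Ccne1, the E cyclin that starts S phase with CDK2, 9.2 to 39.0 per kilobase. Of the D cyclins, Ccnd2 was higher per kilobase in every group, at 196 to 347, than Ccnd1 (40.4 to 116) and Ccnd3 (48.0 to 103).

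The Rag2-GFP sort gave more calls among the cell cycle genes than population or genotype did. Averaged over the 4 pairs of GFP-positive and GFP-negative groups, 23 of the 47 members rose in GFP-positive cells and none fell, where 2.13% of all genes tested rose. The median change was 0.61 over the members and -0.14 over all genes, of which 346 rose and 826 fell. By role, 15 of 23 mitosis genes, 6 of 17 S phase genes, 1 of 4 genes of the G1 kinase and 1 of 3 inhibitors rose. At an unadjusted p under 0.05 there were 34 members, against 21% of all genes. On values scaled to the library total (ppm), with all genes at a median of -0.26 and a split of 180 rises against 1059 falls, 16 members rose. In single libraries 20.5% to 40.5% of the total lay in 6 rRNA-linked genes, so ppm values also depend on that share. With median-ratio scaling, 19 rose.

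All 23 mitosis genes had changes above 0, with a median of 0.78 (0.63 on ppm). The 6 largest rises were in Nusap1 (1.12, adjusted p = 0.00086), Tpx2 (1.03), which nucleates spindle microtubules, Kif23 (1.02), a motor of the central spindle, Ube2c (0.98), the ubiquitin-conjugating enzyme of mitotic exit, Ccnb1 (0.94, adjusted p = 0.00429), cyclin B1, and Cenpf (0.94), a kinetochore protein. Cenpe, Bub1b, Ccna2, Top2a, Kif11, Mki67, Aurkb, Bub1 and Hmmr also rose, by 0.69 to 0.90. They cover a kinetochore motor (Cenpe), checkpoint kinases (Bub1, Bub1b, Aurkb) and a spindle-assembly factor (Hmmr) as well as cyclin A2. Ccnb2, Cdk1, Aurka, Birc5, Plk1, Cdc20, Kif20a and Prc1 did not pass, with changes from 0.23 (Ccnb2) to 0.74 (Plk1).

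The Ki-67 protein, encoded by Mki67, marks cells in any phase of the cycle outside G0. The values here are of its RNA, and the protein was not measured. In Ctrl LMPP Mki67 stood at 5796, 5031 and 4641 normalised counts in the GFP-negative libraries and at 10396, 11929 and 9457 in the GFP-positive ones. In KO LMPP it stood at 4079, 2417 and 5417 without GFP and at 10960, 8684 and 14054 with GFP. The GFP-positive libraries lay above all GFP-negative libraries in both LMPP pairs. Ctrl HSC gave 7664, 8525 and 5018 without GFP and 9863, 11695 and 8722 with GFP, again without overlap. KO HSC gave 9067, 11073 and 8416 without GFP and 12732, 9592 and 7081 with GFP, and these overlapped. Averaged over the 4 pairs Mki67 rose by 0.78 (SE 0.13, limma adjusted p = 0.000379).

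Nusap1 stood at 524, 666 and 372 in Ctrl HSC without GFP and at 761, 1376 and 1142 with GFP. In Ctrl LMPP its libraries held 349, 765 and 388 without GFP and 888, 1244 and 1063 with GFP. KO HSC held 708, 757 and 707 without GFP and 925, 737 and 962 with GFP. Its GFP-positive libraries were above every GFP-negative one in both Ctrl pairs, but overlapped in KO HSC. In KO LMPP, where it held 289, 232 and 640 without GFP and 1124, 854 and 2817 with GFP, the highest value was in the GFP-positive replicate of low detection, and the groups did not overlap. In LMPP the cyclin B1 gene Ccnb1 held 122, 213 and 180 against 275, 374 and 397 in Ctrl, and 127, 58.3 and 136 against 280, 286 and 462 in KO, GFP-negative libraries first, and neither pair overlapped.

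**Figure D2:**
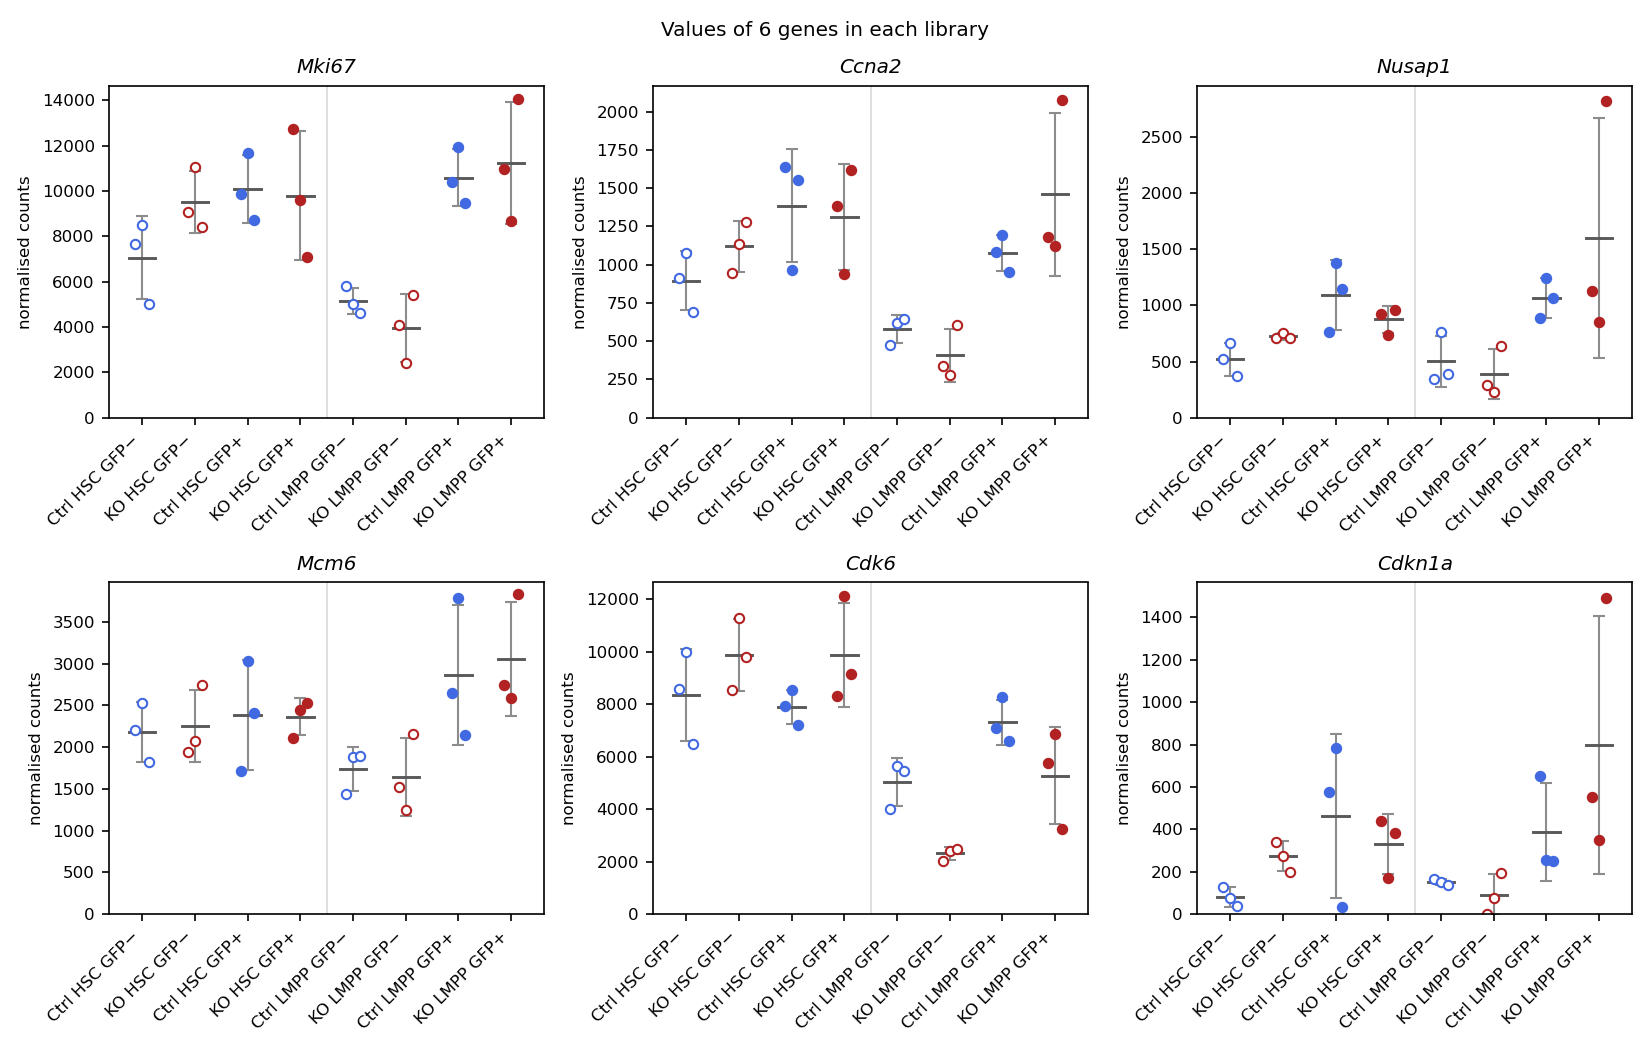
Normalised counts (y axis, from 0) of Mki67, Ccna2, Nusap1, Mcm6, Cdk6 and Cdkn1a in the 8 groups (x axis). Each point is a library (open GFP-negative, filled GFP-positive, blue Ctrl, red KO), with the mean and SD of 3 libraries. Mki67 is lowest in the 2 GFP-negative LMPP groups, and Cdk6 is lowest in KO LMPP GFP-negative libraries, at 2031 to 2505.

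Among the S phase genes, 16 of 17 had changes above 0 in GFP-positive cells, with a median of 0.45 (0.29 on ppm). The 6 that rose were Cdc45 (0.98, adjusted p = 0.00251), which activates the MCM helicase, Uhrf1 (0.78), which carries DNA methylation through replication, Rrm1 (0.61), the large subunit of ribonucleotide reductase, and the helicase subunits Mcm3 (0.46, adjusted p = 0.0421), Mcm5 (0.45, adjusted p = 0.0464) and Mcm6 (0.45, adjusted p = 0.0361). Without the 2 libraries of low detection Mcm3, Mcm5 and Mcm6 no longer passed, at adjusted p of 0.0664, 0.0513 and 0.0648, while Aurka, Birc5, Plk1 and Prc1 of the mitosis genes did. The other 20 of the 23 members still passed in that fit, which gave 24 rises in all. Leaving out 1 library at a time, Mcm3 passed in 10, Mcm5 in 6 and Mcm6 in 12 of 24 fits, against 24 of 24 for Cdc45, Uhrf1 and Rrm1. Pcna, the replication clamp, and Rrm2, the small subunit of the reductase, missed the threshold at adjusted p of 0.0735 and 0.0701. Mcm2, Mcm4, Mcm7, Cdc6, Cdt1, Tyms, Ccne1 and Ccne2 did not pass either, and Gins2, a GINS subunit, had the only change below 0, at -0.22.

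Cdc45 held 165, 235 and 225 normalised counts in Ctrl HSC without GFP and 457, 766 and 523 with GFP. In Ctrl LMPP it held 155, 214 and 152 against 360, 254 and 250, and in KO HSC 238, 161 and 208 against 413, 260 and 292. KO LMPP gave 145, 135 and 220 against 248, 267 and 707. The GFP-positive libraries lay above the GFP-negative ones in all 4 pairs, and the highest value in Ctrl HSC and in KO LMPP was in the library of low detection. An exon stretch of 209 bases of Cdc45 overlaps Ufd1 on the other strand, and the counting strand is not given. Other members overlap too, among them Ube2c (592 of 2600 exon bases), Ccna2 (510 of 4083), Nusap1 (172 of 4059) and Ccnd1 (1100 of 4709). Mcm5 was closer between the groups: it held 783, 865 and 837 against 853, 1004 and 940 in Ctrl HSC, and 476, 377 and 671 against 844, 972 and 1361 in KO LMPP, GFP-negative first.

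The D cyclins did not follow this pattern. Averaged over the 4 pairs, the changes with GFP were -0.06 (SE 0.22) for Ccnd1, 0.03 (SE 0.14) for Ccnd2 and -0.25 (SE 0.15) for Ccnd3, and none passed. Their kinase partner Cdk6 rose by 0.40 (SE 0.12, adjusted p = 0.036), and passed in 12 of 24 fits that left out 1 library. Ccnd2 held 1712, 2907 and 2488 in Ctrl LMPP GFP-negative libraries and 3462, 3448 and 2896 in GFP-positive libraries, which overlapped. Ccnd3 held 676, 692 and 558 against 460, 345 and 458 in the same libraries, where every GFP-positive value was lower. In KO LMPP the order of Ccnd3 was the other way round, with 561, 583 and 682 without GFP and 828, 721 and 1168 with GFP. Ccnd1 held 198, 333 and 439 against 447, 222 and 450 in Ctrl LMPP, and 539, 450 and 651 against 387, 392 and 386 in KO LMPP.

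Of the inhibitors only Cdkn1a, which encodes p21 and is a known target of p53, rose in GFP-positive cells, by 1.73 (SE 0.47, adjusted p = 0.0242). Its libraries were uneven. Ctrl HSC held 129, 78.9 and 37.9 without GFP and 574, 783 and 33.8 with GFP, so that 1 GFP-positive library was the lowest of the 6. Ctrl LMPP held 168, 152 and 136 against 653, 258 and 250, and KO HSC 342, 277 and 200 against 439, 172 and 384. KO LMPP held 2.62, 76.7 and 194 without GFP and 554, 350 and 1489 with GFP. The 2 LMPP pairs did not overlap and the 2 HSC pairs did. Cdkn1b (p27) did not pass, at -0.52 (SE 0.29), and Cdkn1c (p57) did not pass, at -0.97 (SE 0.54). Cdkn1c, a gene known for high levels in quiescent stem cells, was near the floor, with values from 0 to 61.4 in every library, and 625 of its exon bases are shared with Gm44732 on the other strand.

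**Figure D3:**
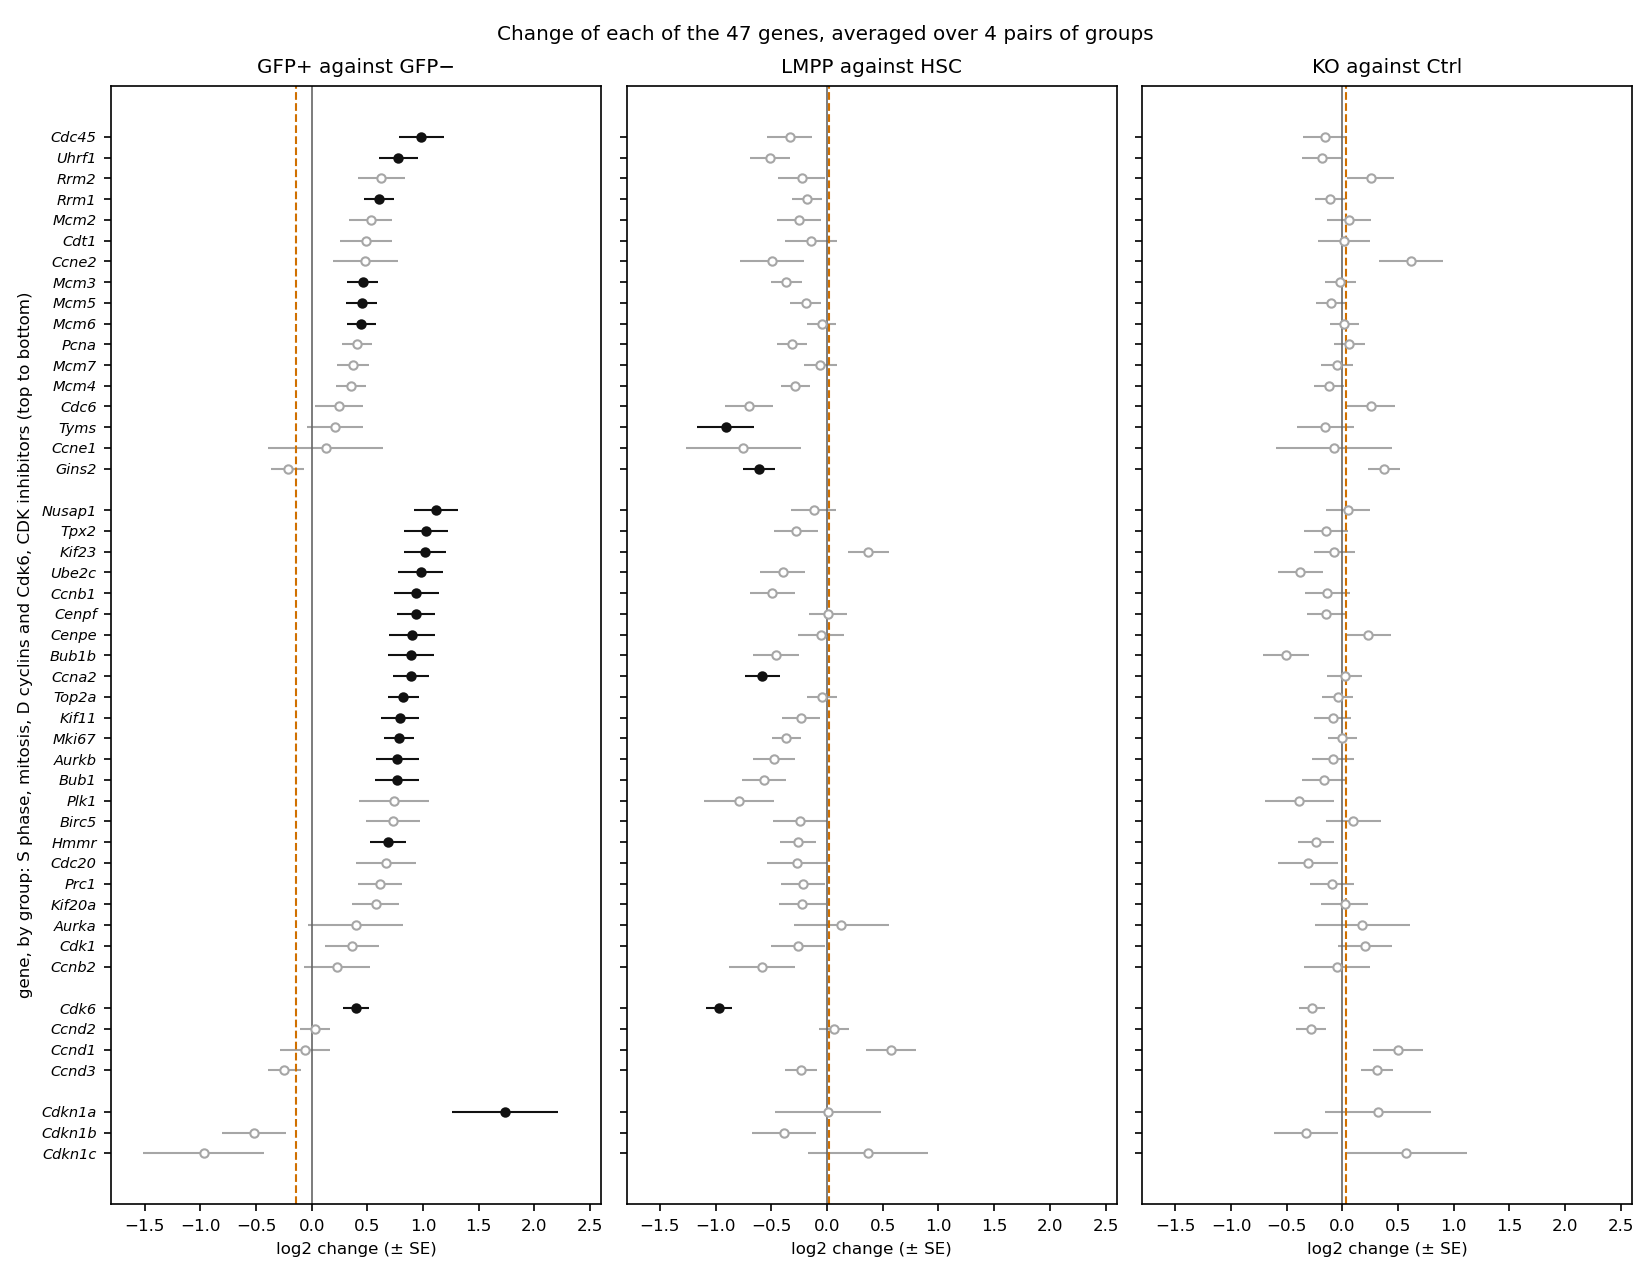
Log2 change ± SE (x axis) of each of the 47 genes (y axis, by role) for GFP-positive against GFP-negative, LMPP against HSC and KO against Ctrl, each averaged over 4 pairs of groups. Filled points passed at an adjusted p under 0.05, and the dashed line is the median of all genes tested (-0.14, 0.02 and 0.03). In the GFP panel 23 genes passed, all above 0, against 4 below 0 for LMPP and none for KO.

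Other genes of the same processes moved in the same comparison. Of 53 further mitotic genes measured, 18 rose and none fell (median 0.59). The 6 with the smallest p were Kif15, Cks1b, Espl1, Ncapg2, Kif14 and Ncapd2, with changes from 0.71 to 1.22, among them the separase gene Espl1 and the condensin subunits Ncapg2 and Ncapd2. Of 43 further replication genes 4 rose and none fell (median 0.36): the primase Prim1 (0.71), the licensing inhibitor Gmnn (0.97), the checkpoint adaptor Clspn (0.94) and Wdhd1 (0.49). Of 19 RB and E2F genes Tfdp1 (0.61) and Mybl2 (0.76), which encodes B-MYB, rose. Of 18 further cyclins, CDKs and INK4 inhibitors Pkmyt1 (0.86), a kinase that inhibits CDK1, and Skp2 (1.02), which targets p27 for destruction, rose. Of 18 tested p53 and checkpoint genes none rose, and the stress-induced Sesn2 fell by 2.17, beside the rise of Cdkn1a.

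Markers of other blood cells moved with the same sort. In GFP-positive against GFP-negative cells, averaged over the 4 pairs, 5 of 9 erythroid, 6 of 6 megakaryocyte and 5 of 7 mast cell and basophil markers fell. Of the granulocyte and monocyte markers 3 of 8 rose, as did 1 of 2 tested B lineage markers (Ebf1) and 1 of 3 tested T and NK lineage markers (Bcl11b). Summed megakaryocyte markers reached 1321 to 1602 in Ctrl HSC and 719 to 1861 in KO HSC GFP-negative libraries, and 66.8 to 123 and 40.1 to 215 in the GFP-positive ones. Summed granulocyte and monocyte markers in Ctrl HSC were 10722 to 28103 without GFP and 57151 to 129110 with GFP, and in KO HSC 4923 to 5967 and 15281 to 57005. Among the markers under 5 in every library of a group were Pf4 and Ppbp in Ctrl HSC GFP-positive libraries, Klf1 and Slc4a1 in Ctrl LMPP GFP-positive libraries, and Mcpt4, Cma1 and Tpsb2 in all Ctrl groups. Bcl11b was under 5 in every group except Ctrl HSC GFP-positive, where it rose by 4.98 against GFP-negative cells. Ebf1 was under 5 in Ctrl HSC GFP-positive libraries and in the GFP-negative libraries of Ctrl LMPP, KO HSC and KO LMPP. The part of these cells in the cell cycle changes was not tested.

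Taken pair by pair, KO LMPP held most of the calls. There 16 of 47 members rose and none fell, where 0.586% of all genes rose. The 6 largest changes were in Cdkn1a (3.80, adjusted p = 0.0442), Ube2c (2.31), Nusap1 (1.98), Tpx2 (1.91), Ccna2 (1.85, adjusted p = 0.00269) and Cenpf (1.80). Cenpe, Ccnb1, Kif11, Uhrf1, Kif23, Mcm2, Mki67, Top2a, Hmmr and Cdk6 rose by 1.12 to 1.72. The medians were 1.45 over the mitosis genes and 0.82 over the S phase genes, against -0.22 over all genes. GFP-positive libraries lay above every GFP-negative library for 30 of 47 members, against 8.05% of all genes. The change of Cdkn1a rests in part on a GFP-negative library at 2.62, below the pseudocount. Without 1 of its libraries at a time it lay between 2.39 and 4.83 and passed in 2 of 6 fits.

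The KO LMPP count depends on how the spread is estimated and on single libraries. From its own 6 libraries alone no member passed. Without the 2 libraries of low detection 12 passed, 11 of them among the 16, and on ppm 6 passed. The 5 lost without the libraries of low detection were Mcm2 (1.59 with them, 0.95 without, adjusted p = 0.12), Cdkn1a (3.23 without, adjusted p = 0.122), Ccnb1 (1.46, adjusted p = 0.0714), Kif23 (1.10, adjusted p = 0.0866) and Cenpe (1.45, adjusted p = 0.0814). Leaving out 1 library, it was 5 without GFP-negative replicate 1, 3 without GFP-negative replicate 2, 5 without GFP-positive replicate 3 and 20 without GFP-negative replicate 3. Mki67, Ccna2 and Ube2c passed in all 6 of these fits. Ube2c held 235, 127 and 394 without GFP and 1219, 738 and 1676 with GFP, and Ccna2 held 339, 280 and 605 against 1179, 1124 and 2075. GFP-positive replicate 3, of low detection, was the highest of the 6 libraries for Mcm2 (4564), Nusap1 (2817), Kif23 (2025), Tpx2 (2554) and Cdkn1a (1489). In this pair, summed mast cell and basophil markers were 27.2 to 3092 in GFP-negative and 3.32 to 12.8 in GFP-positive libraries, with 2 of 7 falling, and summed erythroid markers 1613 to 2220 and 745 to 6648. Mcpt4, Cma1, Tpsb2, Cpa3, Ms4a2 and Fcer1a were under 5 in every KO LMPP GFP-positive library. Their part in the rise was not tested. Of the further lists, 6 of 53 mitotic genes rose here (Nuf2, Cdca8, Kif18b, Smc2, Cks1b and Sgo1, by 1.14 to 2.37), as did the replication genes Prim1 (1.498) and Pole2 (2.10), and Sesn2 fell by 3.54.

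In Ctrl LMPP no member passed (0.0555% of all genes changed), although 18 members had an unadjusted p under 0.05, against 4.96% of all genes. Mki67 (1.04), Top2a (0.99) and Bub1 (1.29) had the smallest p. All 23 mitosis genes were above 0, with a median of 1.002, and GFP-positive libraries were above every GFP-negative library for 28 of 47 members, against 6.58% of all genes. Fitted from these 6 libraries alone, Mki67, Bub1 and Cenpe passed, with adjusted p of 0.0199, 0.0467 and 0.0176.

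In Ctrl HSC only Cdc45 rose, by 1.45 (adjusted p = 0.0472), where 0.765% of all genes rose, and it passed in 2 of 6 fits that left out 1 library and not from the 6 libraries alone. The mitosis median was 0.65, and the S phase median was 0.27 but -0.02 on ppm. GFP-positive libraries stood above every GFP-negative one for 11 members, against 5.66% of all genes. In KO HSC none passed by limma (0.376% of all genes changed) and none had an unadjusted p under 0.05, against 5.41% of all genes. Ccnd2 (-0.50), Gins2 (-0.48) and Kif23 (0.61) had the smallest p. There the mitosis and S phase medians were 0.26 and 0.17, and 5 members did not overlap upwards, against 6.44% of all genes, and 3 downwards, against 9.04%.

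Whether the GFP difference was larger in LMPP than in HSC was tested by the interaction of population and GFP, averaged over the genotypes. No member passed (0.13% of all genes did), while 18 had an unadjusted p under 0.05, against 6.69% of all genes. All 23 mitosis genes were above 0, with a median of 0.86 against 0.04 over all genes. Mki67 (1.02, adjusted p = 0.181), Cdk6 (0.87, adjusted p = 0.245) and Ube2c (1.36) had the smallest p. Cdk6 passed when the libraries of low detection were left out (1.06, adjusted p = 0.019) and without KO LMPP GFP-positive replicate 3 alone (adjusted p = 0.0226).

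**Figure D4:**
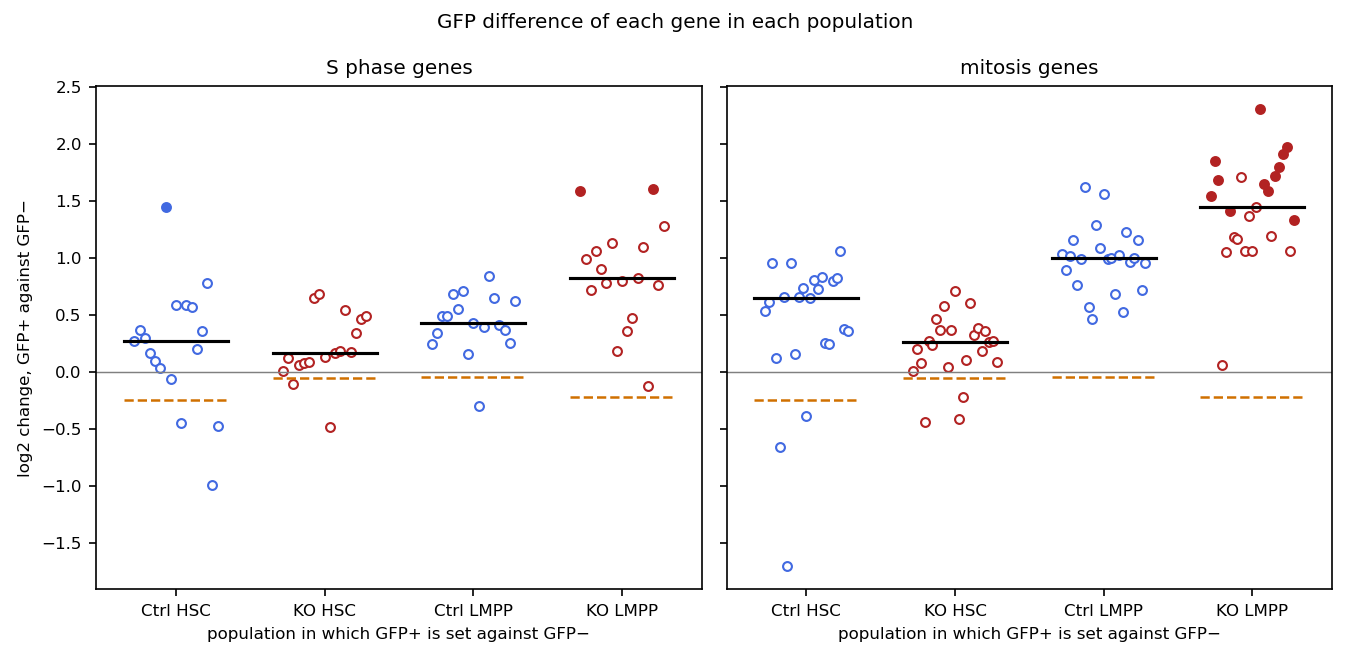
Log2 change of GFP-positive against GFP-negative (y axis) of each S phase and mitosis gene in the 4 populations (x axis). Filled points passed at an adjusted p under 0.05, black lines are medians over the genes and dashed lines medians over all genes tested. Mitosis medians are 0.65, 0.26, 1.002 and 1.45 in Ctrl HSC, KO HSC, Ctrl LMPP and KO LMPP.

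Between LMPP and HSC, averaged over the 4 pairs, 4 of 47 members fell in LMPP and none rose, where 1.71% of all genes fell. These were Cdk6 (fell by 0.97, SE 0.12, adjusted p = 6.48e-06), Gins2 (fell by 0.61, adjusted p = 0.0118), Ccna2 (fell by 0.58, adjusted p = 0.0306) and Tyms (fell by 0.91, adjusted p = 0.0374), the thymidylate synthase gene. All 17 S phase genes were below 0 (median -0.32) and 20 of 23 mitosis genes were (median -0.26), against 0.02 over all genes. Cdk6 and Gins2 passed in 24 of 24 fits that left out 1 library, Ccna2 in 11 and Tyms in 9. Without the 2 libraries of low detection 9 members fell. Ccnd1, at 0.58 (SE 0.22), did not pass, nor did Ccnd2 (0.06), Ccnd3 (-0.23), Mki67 (-0.37), Mcm5 (-0.19), Ccnb1 (-0.49), Cdkn1a (0.01), Cdkn1b (-0.39) or Cdkn1c (0.37).

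Cdk6 in HSC held 8585, 9987 and 6506 (Ctrl GFP-negative), 7937, 8536 and 7219 (Ctrl GFP-positive), 8530, 11302 and 9800 (KO GFP-negative) and 8334, 12137 and 9168 (KO GFP-positive). In LMPP it held 4000, 5642 and 5467, then 7091, 8268 and 6586, then 2031, 2412 and 2505, and then 5747, 6852 and 3241, in the same order of groups. The LMPP libraries were below all HSC libraries in 3 of the 4 pairs, and overlapped with them in Ctrl GFP-positive cells. Of its 13989 exon bases 368 are shared with Gm17590 on the other strand. Gins2 held 951 to 1232 in Ctrl HSC and 624 to 825 in Ctrl LMPP GFP-negative libraries, and 1491 to 1554 in KO HSC and 694 to 739 in KO LMPP GFP-negative libraries. In both GFP-negative pairs LMPP was lower without overlap. However, 2758 of the 4097 exon bases of Gins2 are shared with Gse1 on the other strand. The strand setting is not given, so how reads in these bases were counted is unknown.

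Among single pairs, 3 members fell in KO GFP-negative LMPP against HSC, where 0.463% of all genes fell: Cdk6 (fell by 2.09), Mki67 (fell by 1.33) and Ccna2 (fell by 1.52). Their spread mattered: Cdk6 passed in all 6 fits that left out a library, Mki67 in 4 and Ccna2 in 2, and the count was 1 without KO HSC GFP-negative replicate 2 or KO LMPP GFP-negative replicate 2 and 6 without KO LMPP GFP-negative replicate 3. Here 26 members had an unadjusted p under 0.05, against 8.15% of all genes, and 45 of 47 changes were below 0, with medians of -1.04 for mitosis and -0.68 for S phase genes. No member passed in the other 3 pairs: Ctrl GFP-negative (0.37% of all genes changed), where Cdk6 (-0.72), Plk1 and Gins2 had the smallest p; Ctrl GFP-positive (0.894%), with Aurka, Cdc45 and Uhrf1; and KO GFP-positive (0.611%), with Cdk6 (-0.95, adjusted p = 0.0576, and 0.0204 with a block by description number), Tyms and Cdkn1b. At an unadjusted p under 0.05 these held 5, 4 and 5 members, against 4.59%, 15.3% and 11.4% of all genes. Cell markers moved here too: averaged over the 4 pairs, 2 of 9 erythroid, 2 of 6 megakaryocyte, 3 of 7 mast cell and 6 of 8 granulocyte and monocyte markers fell in LMPP, and their part was not tested. Of the further lists, Ncapg (fell by 0.74) and the repressor E2f8 (fell by 0.96) passed, and the p53 target Sesn1 rose by 0.73.

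Deletion of Tal1 moved no member past the threshold. Averaged over the 4 populations, none of 47 passed by limma, where 0.469% of all genes changed, and 7 had an unadjusted p under 0.05, against 7.73% of all genes. The medians differed in sign between single populations, as given in the next paragraph. Averaged, they were -0.02 over S phase genes and -0.09 over mitosis genes, against 0.03 over all genes. The averaged difference for Mki67 was 0.00 (SE 0.13). Gins2 (0.38), Bub1b (-0.51) and Cdk6 (-0.27) had the smallest p, and Bub1b passed only when KO LMPP GFP-negative replicate 3 was left out (adjusted p = 0.037). Ccnd1 (0.50, SE 0.22), Ccnd2 (-0.28), Ccnd3 (0.31), Cdkn1a (0.32), Cdkn1b (-0.33) and Cdkn1c (0.57) did not pass, nor did Mcm5 (-0.10) or Ccnb1 (-0.14). In the same comparison 4 of 9 erythroid and 4 of 7 mast cell markers rose, and 2 of 8 granulocyte and monocyte markers fell. Of 3 tested T and NK markers 1 fell, Bcl11b, which was under 5 in every group except Ctrl HSC GFP-positive.

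By population, none of 47 passed by limma in GFP-negative HSC (0.16% of all genes changed), where 1 member had an unadjusted p under 0.05 against 3.44% of all genes, or in GFP-positive HSC (0.432%), where 3 did against 15.3%. None passed in GFP-negative LMPP (0.0555%), where 4 did against 2.48%, or in GFP-positive LMPP (0.0432%), where 5 did against 7.72%. The nearest was Cdk6 in LMPP GFP-negative cells, at -1.11 (SE 0.23, adjusted p = 0.0844). Its KO libraries, at 2031 to 2505, lay below all Ctrl libraries, at 4000 to 5642. It passed from these 6 libraries alone (adjusted p = 0.0219) and when libraries were weighted by their quality (adjusted p = 0.000103). Leaving out the libraries of low detection gave an adjusted p of 0.00878. The other members of smallest p were Ccnd1 (0.92), Cdkn1a and Mki67 in HSC GFP-negative cells, Ube2c (-0.93), Aurka and Cdc45 in HSC GFP-positive cells, Ube2c and Kif11 in LMPP GFP-negative cells, and Ccnd3 (1.08), Ccnd2 (-0.84) and Cdkn1b (-1.50) in LMPP GFP-positive cells. Aurka passed in HSC GFP-positive cells only without Ctrl GFP-positive replicate 1 (adjusted p = 0.0414). Its Ctrl GFP-positive libraries there held 289, 0.032 and 107, and the value near 0 is in the library of low detection, so a fit without replicate 1 leaves that value as 1 of 2. In LMPP GFP-positive cells Ccnd3 held 460, 345 and 458 in Ctrl and 828, 721 and 1168 in KO, and Ccnd2 held 3462, 3448 and 2896 in Ctrl and 1774, 2215 and 1546 in KO, without overlap in either gene. Cdkn1b held 241, 365 and 270 in Ctrl and 126, 340 and 20.3 in KO, and overlapped. The mitosis median was 0.25 in HSC GFP-negative, -0.17 in HSC GFP-positive, -0.45 in LMPP GFP-negative and 0.07 in LMPP GFP-positive cells. All genes stood at 0.02, 0.19, -0.01 and -0.10, and S phase genes at 0.11, -0.002, -0.25 and 0.24, in the same order. Above 0 were 18 of 23 mitosis genes in HSC GFP-negative cells, against 1 of 23 in LMPP GFP-negative cells.

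The differences of differences that involve genotype gave no member that passed. In the interaction of genotype and GFP, which 0.00617% of all genes passed, Ccnd3 (0.79), Cdkn1b (-1.49) and Ccnd2 (-0.69) had the smallest p, and 3 members had an unadjusted p under 0.05, against 4.36% of all genes. In the interaction of genotype and population, which 0.0123% of all genes passed, they were Cdk6 (-1.10, adjusted p = 0.217), Cenpe and Ccnd2, and 2 members had an unadjusted p under 0.05, against 6.32% of all genes. Cdk6 passed there on ppm (adjusted p = 0.025) and with a replicate block (adjusted p = 0.0487).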

How the data were processed

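RNA was sequenced in bulk (Ovation Ultralow libraries, NextSeq500, per the labels' protocols) in 24 libraries, 3 per group. The authors deposited 1 table of normalised counts (signal) for 17149 genes. Trimmomatic 0.33, HTSeq 0.6.1, edgeR and mm10 are named in the submitters' processing notes. Not given in the sources used here are the aligner, the normalisation function and the strand setting. The values were fractional (0.59% of the non-zero ones were whole within 0.001), so no count model was fitted.

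Genes with at least 1 ppm of the library total in 3 libraries (16215) were tested with limma 3.58.1 (R 4.3.3; trended eBayes) on log2(value + 4.1), with 8 group means fitted to 24 libraries and Benjamini-Hochberg adjustment within each of 18 comparisons: 12 single pairs, 3 averages and 3 interactions. The pseudocount of 4.1 is 0.5 ppm of the mean library total. It understates changes of low genes. The fit was run on simulated data with independent noise and the same SD of a gene in every group. Such data lack the libraries of low detection and the unequal spread of the groups, and no result here rests on them. The members and lists were chosen with earlier results of these data known. Every member that passed is named, with values for the 6 largest where over 12 passed; where none passed, the 3 of smallest p are named; 10 members are always described, and of other lists up to 6 genes that passed. The motif search was set after the GFP results were seen and was the only one run. Alternatives changed the pseudocount, filter, scaling, weighting, trend, block, groups fitted and libraries. Gene positions come from a GRCm38 annotation, promoters from RefSeq.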

Additional observations from a re-analysis of the deposited data

Results flagged for a closer look

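In 8 pairs of populations, over 5 of the 47 members, every library of one group lay above the other group in one population and below it in another. Such opposed values were held by 7.47% of all genes tested and 10.6% of the members. Differences between pairs of populations were not tested beyond the 3 averaged interactions, which no member passed. For KO against Ctrl, Cdkn1b differed by 0.71 in HSC GFP-negative and by -0.64 in HSC GFP-positive cells on the log2 scale. For GFP-positive against GFP-negative, Cdkn1b differed by 0.69 in Ctrl HSC and by -0.66 in KO HSC. Gins2 differed by 0.37 in KO LMPP and by -0.48 in KO HSC. Ccnd3 differed by 0.55 in KO LMPP, against -0.61 in Ctrl LMPP and -0.25 in KO HSC. For LMPP against HSC, Cenpe differed by 0.87 in Ctrl GFP-positive and by -1.16 in KO GFP-negative cells. Ccnd3 differed by 0.36 in KO GFP-positive and by -0.44 in KO GFP-negative cells. Cdkn1a differed by 1.005 in Ctrl GFP-negative and by -2.51 in KO GFP-negative cells, where 1 LMPP library held 2.62 normalised counts. None of these differences passed at an adjusted p under 0.05.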

How the results depend on the processing

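No change that passed in the reported fit turned its sign in another setting; some that did not pass turned, such as Aurka with GFP in Ctrl HSC (-1.70, and 0.12 without low detection) and Tyms in KO LMPP (-0.12 and 0.70). The count of 23 rises with GFP over the 4 pairs was 16 to 26 across the other settings and 19 to 30 without 1 library, all rises. The other counts moved as follows, and the cause was not tested. The share of all genes that passed in each of these fits is not given, so a higher count cannot be read as particular to the members. In the fit of 8 groups, all comparisons share a single estimate of the spread of a gene. Neither library of low detection is in LMPP against HSC in KO GFP-negative cells. The changes of Mki67 (-1.33) and Ccna2 (-1.52) there were the same without those libraries. GFP in Ctrl HSC (1): 0 with median-ratio scaling, ppm, array weights or the 2 groups alone, 2 without the libraries of low detection, and 0 to 3 without 1 library. GFP in Ctrl LMPP (0): 1 without low detection, 7 with array weights, 3 from the 2 groups alone. GFP in KO LMPP (16): 10 with median-ratio scaling, 6 on ppm, 31 with array weights, 6 without the intensity trend, 0 from the 2 groups alone, 3 to 20 without 1 library. LMPP against HSC, mean (4): 2 on ppm or without the trend, 9 without low detection, 12 with array weights, 2 to 6 without 1 library; 2 passed when any one of these was left out: Ctrl HSC GFP-negative replicate 1 or 2, Ctrl LMPP GFP-negative replicate 1, Ctrl LMPP GFP-positive replicate 3, KO HSC GFP-negative replicate 2 or 3, KO HSC GFP-positive replicate 1, or KO LMPP GFP-negative replicate 1 or 2. LMPP against HSC in KO GFP-negative cells (3): 5 on ppm, 12 without low detection, 28 with array weights, 1 without the trend, 5 with a block by description number, 13 from the 2 groups alone, 1 to 6 without 1 library. In Ctrl GFP-negative cells (0) it was 3 with array weights, in Ctrl GFP-positive cells (0) 1 without low detection and 0 to 1 without 1 library, and in KO GFP-positive cells (0) 1 with either other scaling, array weights or either replicate block and 0 to 2 without 1 library. KO against Ctrl in LMPP GFP-negative cells (0) gave 1 without low detection, with array weights, with the replicate block or from the 2 groups alone; in HSC GFP-positive cells and on average it gave 0 to 1 without 1 library. The interaction of genotype and population (0) gave 1 on ppm and with the replicate block; that of population and GFP (0) gave 1 without low detection, 2 with array weights and 0 to 1 without 1 library. Replicate numbers were not treated as pairs, since no comparison had every same-numbered correlation of deviations over 0.1. Each library still correlated best with its own number in the 4 GFP pairs. The same held for LMPP against HSC in Ctrl and in KO GFP-positive cells. Within a genotype the replicate number follows the description number, and what that number marks is not stated. The replicate block gave 25 rises with GFP over the 4 pairs and 16 in KO LMPP; a block by description number gave 26 and 19. Precision is limited by 3 libraries per group, by the 2 libraries of low detection and by the wide spread of KO LMPP GFP-negative libraries; read depth is unknown.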
